A study of Mus musculus with 12 samples.

Results

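The genes described here are the oligoadenylate synthetase (OAS) family of the mouse, taken as the rows of the merged count table whose gene symbol was *Oas1a*, *Oas1b*, *Oas1c*, *Oas1g*, *Oas2*, *Oas3*, *Oasl1* or *Oasl2*. Each symbol gave 1 row, so the family made up 8 of 55471 genes in the table, and all 8 passed the filter on low counts that left 18228 genes for testing. RNA was sequenced from dendritic cells (DCs) that were grown from the marrow of adult female C57BL/6 mice in GM-CSF, a growth factor of myeloid cells. All cells carried a retrovirus with a short hairpin RNA (shRNA) and a human CD8 marker on which transduced cells were sorted. The hairpin was directed at firefly luciferase (shControl) or at *Ppargc1b* (sh*Ppargc1b*), the gene of the co-activator PGC-1β, and cells were either left unstimulated or given interferon-β (IFN-β) for 6 h. These 2 hairpins and 2 treatments gave 4 groups of 3 libraries. A knockdown by 1 hairpin leaves some transcript, and the labels do not say which of the 2 *Ppargc1b* hairpins of the study was used here, where hairpin 1 was the default for most of its experiments.

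OAS enzymes are cytoplasmic sensors of double-stranded RNA. When bound to it, they join ATP into short 2′-5′-linked oligoadenylates (2-5A), a second messenger that starts the decay of viral and cellular RNA. The genes are classical interferon-stimulated genes: type I interferon acts through its receptor and a complex with Stat2 and Irf9 that binds the interferon-stimulated response element (ISRE). In the mouse, *Oas1a*, *Oas1g*, *Oas2*, *Oas3* and *Oasl2* encode active synthetases. *Oas1b*, *Oas1c* and *Oasl1* encode proteins without synthetase activity. *Oas1b* is the flavivirus resistance gene, which is truncated in common laboratory strains, and *Oasl1* is known to restrain translation of Irf7.

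All 8 genes lie on chromosome 5 (GRCm38, GENCODE M21). *Oasl2* (chr5:114896936-114912234) and *Oasl1* (chr5:114923240-114937915) are neighbours on the plus strand, and the other 6 lie together further along. From lower to higher coordinates these are *Oas2* (chr5:120730333-120749853), *Oas3* (chr5:120753098-120777661), *Oas1c* (chr5:120800194-120812514), *Oas1b* (chr5:120812635-120824163), *Oas1g* (chr5:120876142-120887613) and *Oas1a* (chr5:120896256-120907521). Only *Oas1b* is on the plus strand among these 6, and it is annotated as a polymorphic pseudogene. It points away from *Oas1c*, with 120 bases between the annotated starts. A further 4 genes of the cluster had almost no counts: the highest count in any library was 12 for *Oas1d*, 4 for *Oas1h*, 2 for *Oas1e* and 2 for *Oas1f*, and none of these 4 was tested.

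Sequence shared between copies limits what can be told apart. Of the 100-base stretches in *Oas1a* transcripts, 40.9% also occurred in *Oas1g*, and of those in *Oas1g* transcripts 31.3% occurred in *Oas1a*. Read pairs that fall wholly in such stretches have no unique place and were not counted, so the levels of both genes are uncertain. *Oas1b*, *Oas2*, *Oas3*, *Oasl1* and *Oasl2* shared no such stretch with another annotated gene. An antisense gene, Gm43069, covers 9.44% of the exon bases of *Oas1c* and had 178 counts in all libraries together, against 7047 for *Oas1c*. Another, Gm13822, covers 1.46% of the exon bases of *Oasl1*. Whether counting used strand is not given in the sources used here, so how reads in these shared parts were treated is not known.

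The promoter windows below are shown because 3 of them carry one identical ISRE-like run, in *Oas1c* on the other strand. In shControl DCs *Oas1a* and *Oas1g* rose 5.71-fold and 6.57-fold with IFN-β, and *Oas1c* rose 2.46-fold. The windows are those of RefSeq (GRCm38.p6) from 250 bases before to 50 bases after the annotated start, in the direction of the gene. Capitals mark matches to the ISRE core GAAANNGAAA, searched on both strands, so that the other strand reads TTTCNNTTTC. Overlapping matches were joined. The windows lie at chr5:120907476-120907775 (minus strand) for *Oas1a*, chr5:120887564-120887863 (minus) for *Oas1g*, chr5:120812465-120812764 (minus) for *Oas1c*, chr5:120777610-120777909 (minus) for *Oas3* and chr5:114922990-114923289 (plus) for *Oasl1*.
Oas1a: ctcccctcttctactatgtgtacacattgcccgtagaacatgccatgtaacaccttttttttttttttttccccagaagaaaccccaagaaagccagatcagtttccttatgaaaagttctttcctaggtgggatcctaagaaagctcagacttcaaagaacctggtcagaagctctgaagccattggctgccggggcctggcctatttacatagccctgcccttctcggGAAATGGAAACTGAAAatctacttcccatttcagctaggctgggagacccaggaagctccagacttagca
Oas1g: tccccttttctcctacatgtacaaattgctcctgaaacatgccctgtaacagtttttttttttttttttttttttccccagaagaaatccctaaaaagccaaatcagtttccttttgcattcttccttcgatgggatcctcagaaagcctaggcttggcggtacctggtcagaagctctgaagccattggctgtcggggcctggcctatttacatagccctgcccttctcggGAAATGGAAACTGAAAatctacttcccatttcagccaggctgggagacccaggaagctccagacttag
Oas1c: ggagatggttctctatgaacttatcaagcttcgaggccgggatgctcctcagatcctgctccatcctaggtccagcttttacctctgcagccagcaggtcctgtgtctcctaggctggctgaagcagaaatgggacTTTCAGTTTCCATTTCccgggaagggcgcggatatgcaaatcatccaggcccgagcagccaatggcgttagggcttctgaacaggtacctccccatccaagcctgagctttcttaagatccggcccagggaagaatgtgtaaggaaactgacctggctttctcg
Oas3: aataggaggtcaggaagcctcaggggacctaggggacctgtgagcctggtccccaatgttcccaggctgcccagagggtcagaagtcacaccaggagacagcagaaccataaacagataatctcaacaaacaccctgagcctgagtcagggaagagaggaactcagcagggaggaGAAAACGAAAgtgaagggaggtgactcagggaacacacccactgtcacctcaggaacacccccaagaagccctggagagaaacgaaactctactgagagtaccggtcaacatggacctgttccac
Oasl1: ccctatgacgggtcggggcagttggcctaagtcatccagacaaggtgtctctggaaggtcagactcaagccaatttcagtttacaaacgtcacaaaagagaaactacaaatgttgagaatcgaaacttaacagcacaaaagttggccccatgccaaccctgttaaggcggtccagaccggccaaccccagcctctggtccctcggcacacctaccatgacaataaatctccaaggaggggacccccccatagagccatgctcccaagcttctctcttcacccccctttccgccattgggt

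Of the 8 genes, 6 had a window in the table used, and 4 of these 6 held the core, namely *Oas1a*, *Oas1g*, *Oas1c* and *Oas3*. Of all 32851 windows of this length, 3.44% held it. In *Oas1a* and *Oas1g* 2 overlapping matches formed the same 16 bases, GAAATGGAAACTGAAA, which began 20 bases before the start of *Oas1a* and 18 bases before that of *Oas1g*. The windows of these 2 genes were 85.3% identical in a global alignment. The *Oas1c* window held the same 16 bases on its other strand, 114 to 99 bases before the *Oas1c* start. Read in the direction of *Oas1b*, this run lies 22 to 7 bases before the GENCODE start of *Oas1b*, which is close to its place in *Oas1a* and *Oas1g*. The 16-base run was looked up after the *Oas1a* window had been seen, and it occurred in 7 of all windows, belonging to 5 genes: *Oas1a*, *Oas1c*, *Oas1g*, *Apol9a* and *Apol9b*. The *Oasl1* and *Oasl2* windows had no match to these letters.

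**Figure D1:**
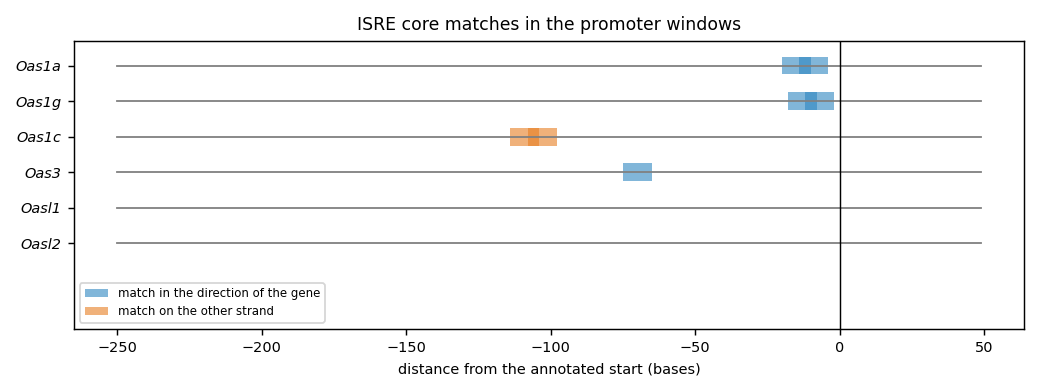
Matches to the ISRE core in 6 promoter windows, by distance from the annotated start in bases (horizontal axis, negative before the start); blue boxes match in the direction of the gene, orange boxes on the other strand, and darker parts are overlaps. *Oas1a* and *Oas1g* carry a pair of overlapping matches just before the start, *Oas1c* carries the pair further away in the opposite direction, *Oas3* has a single match from 75 bases before its start, and *Oasl1* and *Oasl2* have none.

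Libraries held 49.9 to 77.7 M counts, with TMM factors of 1.07 to 1.09 in unstimulated and 0.914 to 0.941 in treated cells. Levels are given as CPM, the counts of a library scaled by its total and TMM factor. *Ppargc1b* itself was at 33.4, 33.3 and 36.7 CPM in unstimulated shControl and at 18.6, 19.3 and 20.3 CPM in unstimulated sh*Ppargc1b* libraries, and at 23.6 to 31.4 against 15.5 to 20.9 CPM with IFN-β. Of 8 dendritic markers all were detected, and their summed level ran from 3729 to 5248 CPM. That of 8 macrophage markers ran from 1059 to 1968 CPM, of 8 neutrophil markers from 32.2 to 129.9 CPM, of 6 mast cell or basophil markers from 7.64 to 25.7 CPM and of 5 plasmacytoid markers from 2.09 to 5.45 CPM, while 6 lymphocyte markers summed to under 1 CPM and 5 erythroid markers to near 0. One library stood apart for the OAS genes: in shControl unstimulated replicate 2 every member was above its group mean, by 0.11 to 0.36 on the log2 scale. In shPpargc1b unstimulated replicate 3 the mean deviation of the members was 0.12.

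The family was expressed without added interferon. Per kb of exon, *Oasl2* was highest in unstimulated shControl DCs at 23.4 ± 2.88 CPM per kb (SD, n = 3). This was 29.6% of the summed level of the 8 genes. The scale allows different genes to be compared, but it used the full exon length. Reads in sequence shared by *Oas1a* and *Oas1g* were not counted, so both may be placed too low. The order and the shares are uncertain to that extent. *Oas3* at 14.2 ± 1.71 and *Oas1a* at 13.9 ± 1.27 CPM per kb came next and overlapped each other between libraries. The order then ran *Oas2* (10.6 ± 1.92), *Oas1g* (7.71 ± 0.563), *Oas1b* (3.31 ± 0.314), *Oasl1* (3.25 ± 0.736) and *Oas1c* (2.72 ± 0.250 CPM per kb), and neighbours among the last 3 of these overlapped. IFN-β changed this order mainly through *Oasl1*, which stood seventh of 8 without it and second with it. In treated shControl DCs *Oasl2* reached 143 ± 5.59, *Oasl1* 116 ± 7.13 and *Oas3* 106 ± 3.55 CPM per kb, with overlap between the latter pair. *Oas1c* remained lowest at 6.71 ± 0.261 CPM per kb. The share of *Oasl1* in the summed level was 4.11% without and 19.4% with IFN-β. Order in sh*Ppargc1b* cells was the same with IFN-β, and without it only *Oasl1* and *Oas1b* changed places.

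**Figure D2:**
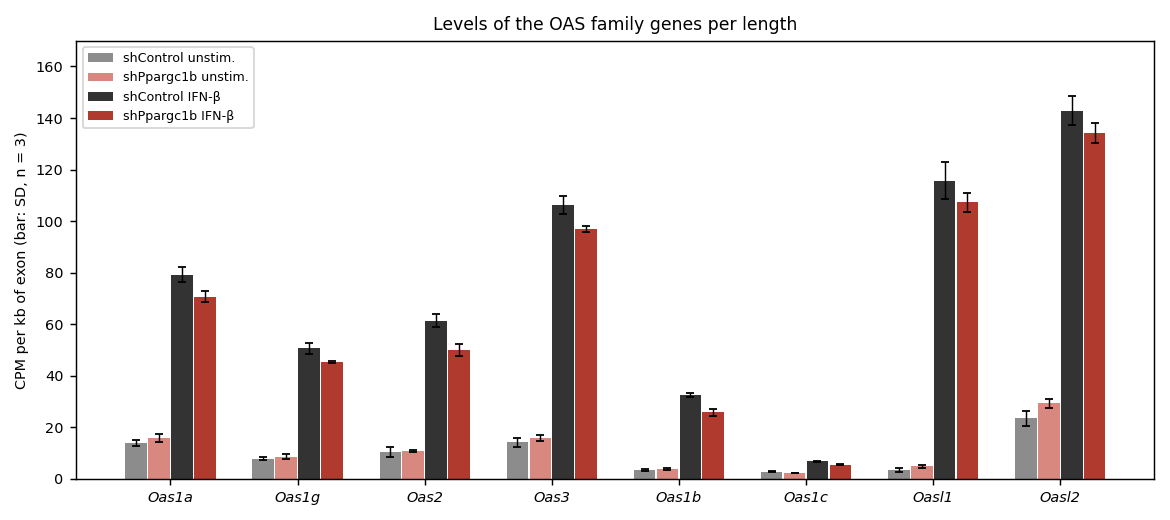
Mean level of each OAS gene in CPM per kb of exon (vertical axis, from 0) in the 4 groups; error bars are SD over 3 libraries. *Oasl1* is among the lowest without IFN-β and second to *Oasl2* with it, and *Oas1c* is lowest in each group. Bars of *Oas1a* and *Oas1g* may be too low, because reads in sequence they share were not counted.

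The first comparison asked how the family responded to IFN-β. All 8 genes rose in shControl DCs, where 48.2% of all tested genes passed the threshold and 23.7% passed it in the direction of a rise. The median log2 fold change was 2.66 over the 8 genes and -0.03 over all tested genes. For each of the 8, every treated library lay above every unstimulated one, which held for 27.2% of all genes. *Oasl1*, the inactive OAS-like protein with ubiquitin-like domains, rose most. It went from 7.54, 10.7 and 7.20 CPM to 282, 305 and 318 CPM, a 35.5-fold rise (log2 5.15 ± 0.12 SE, adjusted p = 1.21e-14, edgeR quasi-likelihood test). *Oas1b* went from 6.53, 7.24 and 5.99 to 63.3, 66.0 and 65.2 CPM, or 9.84-fold (log2 3.30 ± 0.09, adjusted p = 5.59e-14). *Oas1c*, its divergent neighbour, showed the smallest rise, from 6.49, 7.18 and 5.98 to 15.5, 16.8 and 16.1 CPM, or 2.46-fold (log2 1.30 ± 0.08, adjusted p = 9.29e-10).

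The active synthetases fell between these values and were close to each other. *Oas3*, the enzyme with the longest transcript of the family, rose 7.50-fold, from 94.0, 114 and 92.6 to 723, 764 and 768 CPM (log2 2.91 ± 0.07). *Oas1g* rose 6.57-fold (log2 2.72 ± 0.07), *Oasl2* 6.10-fold (2.61 ± 0.07), *Oas2* 5.81-fold (2.54 ± 0.09) and *Oas1a* 5.71-fold (2.51 ± 0.07), all with adjusted p below that of *Oas1c*. The *Oas2* libraries went from 41.0, 56.8 and 43.1 to 261, 283 and 276 CPM, and replicate 2 of the unstimulated group was the highest of the 3 for this and every other member. Scaling by library totals alone shifted the median of all genes to -0.27 and the median of the members to 2.42, so each rise stood clear of the shift. That scaling also lowered the share of rises among all called genes from 49.0% to 23.9% in shControl and from 50.2% to 23.7% in sh*Ppargc1b* DCs. In shControl DCs 1 of 8 dendritic, 1 of 8 neutrophil and 1 of 6 mast cell or basophil markers fell. Of 8 macrophage markers 5 rose, where 23.7% of all tested genes rose. The sum of the 8 was 1059 to 1221 CPM at rest and 1760 to 1968 CPM with IFN-β, and their part in the rises was not tested. In these bulk samples more responding cells and more RNA per cell cannot be told apart, and likewise fewer cells of a type and less RNA per cell.

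In sh*Ppargc1b* DCs all 8 genes rose as well, against 42.6% of all genes called and 21.4% called higher. The median rise of the members was 2.31 on the log2 scale (all genes -0.02), and again no treated library was as low as an unstimulated one (24.7% of all genes). *Oasl1* rose 22.2-fold, from 11.3, 12.3 and 14.0 to 279, 271 and 289.9 CPM (log2 4.47 ± 0.11, adjusted p = 4.91e-14). *Oas1b* rose 6.89-fold (log2 2.79 ± 0.09), *Oas3* 6.09-fold (2.61 ± 0.07), *Oas1g* 5.24-fold (2.39 ± 0.07), *Oas2* 4.66-fold (2.22 ± 0.09), *Oasl2* 4.58-fold (2.20 ± 0.07) and *Oas1a* 4.46-fold (2.16 ± 0.07). *Oas1c* rose 2.56-fold (log2 1.36 ± 0.08). For 7 of the 8 genes the fold was smaller than in shControl DCs, and *Oas1c* was the exception. Whether that difference itself passed a test is given below, after the comparisons it is made of. Of 8 macrophage markers 5 rose and 1 fell in sh*Ppargc1b* DCs, with sums of 1076 to 1151 CPM at rest and 1517 to 1735 CPM with IFN-β. Of 8 neutrophil markers 1 fell, and of 6 mast cell or basophil markers 2 fell. The part of these markers in the rises was not tested.

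**Figure D3:**
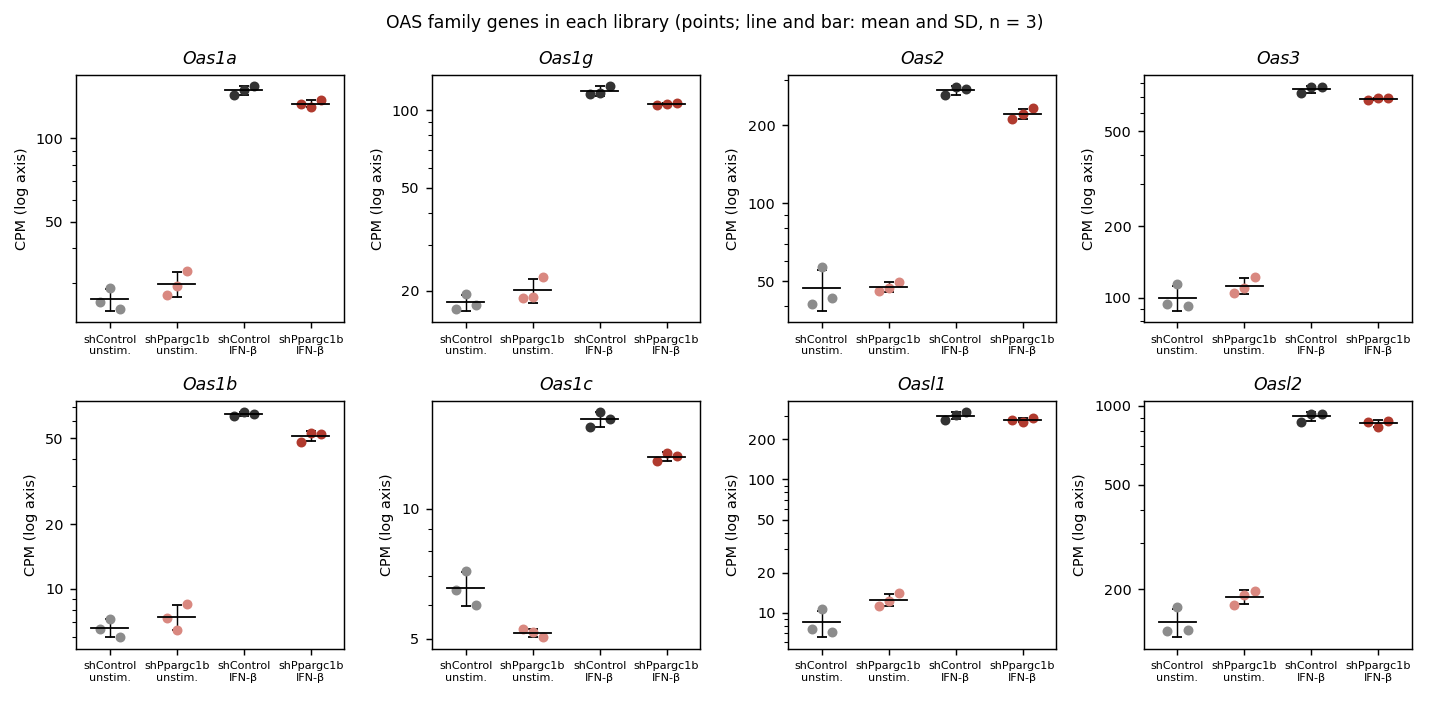
CPM of each OAS gene (log axes that differ between panels) in every library; points are libraries, lines the group means and error bars SD (n = 3). Treated libraries sit far above unstimulated ones in every panel, and with IFN-β the sh*Ppargc1b* points lie below all shControl points for 6 genes but overlap them for *Oasl1* and *Oasl2*.

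The next comparison was sh*Ppargc1b* against shControl without IFN-β. Of the 8 genes 2 were higher (*Oasl1* and *Oasl2*), 1 was lower (*Oas1c*) and 5 did not pass the threshold, where 23.6% of all genes passed it, 12.4% higher and 11.1% lower. *Oasl1* was at 7.54, 10.7 and 7.20 CPM in shControl and at 11.3, 12.3 and 14.0 CPM in sh*Ppargc1b* libraries, which did not overlap (log2 0.57 ± 0.12 SE, 1.48-fold, adjusted p = 0.00212). *Oasl2*, an active synthetase that also carries ubiquitin-like domains, was at 138, 170.5 and 139 against 174, 189.5 and 197 CPM (log2 0.32 ± 0.07, 1.25-fold, adjusted p = 0.00321). *Oas1c* was at 6.49, 7.18 and 5.98 against 5.26, 5.19 and 5.04 CPM (log2 -0.34 ± 0.08, adjusted p = 0.00473). Each of these 3 was called in every alternative analysis. Of all tested genes 36.8% showed no overlap, 18.4% in each direction.

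For the other 5 members the libraries overlapped, and the 5 differences were positive, with that of *Oas2* near 0 and of changing sign when single libraries were left out. *Oas1a* differed by 0.19 ± 0.07 (95% interval 0.04 to 0.34, adjusted p = 0.0671), *Oas1b* by 0.18 ± 0.09 (-0.02 to 0.37, adjusted p = 0.199), *Oas3* by 0.17 ± 0.07 (0.01 to 0.32, adjusted p = 0.111) and *Oas1g* by 0.16 ± 0.07 (0.01 to 0.31, adjusted p = 0.117), all on the log2 scale. *Oas2* was at 41.0, 56.8 and 43.1 CPM in shControl and at 45.7, 47.3 and 49.8 CPM in sh*Ppargc1b* libraries (log2 0.02 ± 0.09, interval -0.17 to 0.21, adjusted p = 0.918). This count depended on the settings and on single libraries. With every library kept it was 6 without the filter on low counts, where 9.59% of all genes were called. Without shControl unstimulated replicate 2, in which all 8 genes were high, 7 of 8 members were called, with *Oas1a* at 0.27 (adjusted p = 0.0162), *Oas1g* at 0.22 (0.0460), *Oas2* at 0.18 (0.0338) and *Oas3* at 0.27 (0.00342) joining the 3. The share of 23.6% of all genes belongs to the fit with every library and is not given for this one. Without shPpargc1b unstimulated replicate 3 the difference of *Oas1a* was 0.11 (adjusted p = 0.305). Markers of several cell types moved in the same comparison, where 12.4% of all tested genes were higher and 11.1% lower. Of 8 neutrophil markers 2 were higher with the knockdown (sums of 37.2 to 75.4 CPM in shControl and 75.3 to 129.9 CPM in sh*Ppargc1b* libraries), of 6 mast cell or basophil markers 2 were higher (8.71 to 16.6 and 22.1 to 25.7 CPM), of 8 dendritic markers 4 were higher, and of 8 macrophage markers 1 was higher and 2 were lower. Their part in the differences of the OAS genes was not tested.

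The same comparison with IFN-β gave negative differences for the whole family. Of the 8 genes 3 were lower in sh*Ppargc1b* DCs (*Oas1b*, *Oas1c* and *Oas2*), none was higher, and of all tested genes 24.2% were called, 11.5% higher and 12.7% lower. The 8 differences, called or not, had a median of -0.17 against -0.01 over all genes. For 6 members all sh*Ppargc1b* libraries lay below all shControl libraries, which was the case for 20.7% of all genes. *Oas1b* was at 63.3, 66.0 and 65.2 CPM in shControl and at 48.3, 53.3 and 52.4 CPM in sh*Ppargc1b* libraries (log2 -0.34 ± 0.08, 0.791-fold, adjusted p = 0.00400). *Oas2*, at 261, 283 and 276 against 212, 221 and 233 CPM, differed by -0.30 ± 0.09 (0.812-fold, adjusted p = 0.0181). *Oas1c*, at 15.5, 16.8 and 16.1 against 12.9, 13.5 and 13.3 CPM, differed by -0.29 ± 0.07 (0.820-fold, adjusted p = 0.00921). Of the 3, *Oas2* lost its call without shPpargc1b IFN-beta replicate 1 (adjusted p = 0.0565) and without shControl IFN-beta replicate 2 (0.0514).

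*Oas1a* (144, 149 and 155 against 134, 129 and 137 CPM), *Oas1g* (115, 116 and 124 against 105, 105 and 107 CPM) and *Oas3* (723, 764 and 768 against 676, 689 and 691 CPM) did not overlap between the hairpins but did not pass the threshold. Their log2 differences were -0.16 ± 0.07 (adjusted p = 0.0862), -0.17 ± 0.06 (0.0652) and -0.13 ± 0.07 (0.188). The OAS-like pair overlapped. *Oasl1* was at 282, 305 and 318 against 279, 271 and 289.9 CPM (log2 -0.11 ± 0.09, interval -0.31 to 0.09, adjusted p = 0.456), and *Oasl2* at 869, 932 and 929.6 against 868, 828 and 872 CPM (-0.09 ± 0.07, interval -0.24 to 0.06, adjusted p = 0.401). Thus both genes that were higher with the knockdown at rest did not differ detectably under IFN-β, and *Oas1c* was lower in both states. Fitting only the 6 treated libraries called *Oas1a* and *Oas1g* as well. Of 8 macrophage markers 4 were lower and 1 higher with the knockdown in the same comparison, and their sum was 1760 to 1968 CPM in shControl and 1517 to 1735 CPM in sh*Ppargc1b* libraries. Of 8 dendritic markers 4 were higher. Among all tested genes 11.5% were higher and 12.7% lower. Of 8 neutrophil markers 2 were higher, *Cxcr2* and *S100a8* (sums of 32.2 to 77.0 CPM in shControl and 68.1 to 122.7 CPM in sh*Ppargc1b* libraries), and of 6 mast cell or basophil markers 2 were higher, *Gata2* and *Kit* (7.64 to 14.6 and 12.8 to 21.1 CPM). The part of these markers in the differences of the OAS genes was not tested.

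The interaction asked whether the knockdown effect differed between treated and unstimulated DCs, which is the same as asking whether the IFN-β response differed between the hairpins. None of the 8 genes passed the threshold in the edgeR fit of the 4 group means, where 0.73% of all genes did (0.0603% higher and 0.669% lower). An unadjusted p under 0.05 with a negative estimate was found for 7 of the 8, and for 6.53% of all genes. *Oasl1* had the largest, -0.68 ± 0.15 on the log2 scale (95% interval -0.99 to -0.36, adjusted p = 0.0532), followed by *Oas1b* (-0.51 ± 0.12, -0.77 to -0.26, adjusted p = 0.0635) and *Oasl2* (-0.41 ± 0.10, -0.62 to -0.20, adjusted p = 0.0722). *Oas1a* stood at -0.36 ± 0.10 (adjusted p = 0.124), *Oas1g* at -0.33 ± 0.09 (0.140), *Oas2* at -0.32 ± 0.12 (0.348) and *Oas3* at -0.30 ± 0.10 (0.225). *Oas1c* alone was near 0, at 0.06 ± 0.11 (-0.17 to 0.29, adjusted p = 0.922). The median was -0.34 over the members and -0.00079 over all genes. Of the genes called in the interaction 8.27% were positive, and 20.2% with library totals alone.

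This count depends on the analysis more than any other, and edgeR with other settings called 0 to 7 of the 8. DESeq2 called 5 of the 8 (*Oas1a*, *Oas1b*, *Oas1g*, *Oasl1* and *Oasl2*) and 2.46% of all genes. Without shControl unstimulated replicate 2 edgeR also called 5, but with *Oas2* and *Oas3* in place of *Oas1a* and *Oas1g*. When single libraries were left out, 0.193% to 1.45% of all genes were called. With a block by run of library codes, described below, edgeR called 4 (*Oas1b*, *Oas1g*, *Oasl1* and *Oasl2*) and 2.33% of all genes. Without shControl unstimulated replicate 3 the adjusted p of *Oasl1* was 0.180 and none was called. *Oas1c* was called in no setting, with estimates from 0.0038 to 0.14. The sign of the other 7 estimates was negative in every setting run. On the CPM scale the summed level of the 8 genes was 362 ± 45.5 in unstimulated shControl and 422 ± 28.6 in unstimulated sh*Ppargc1b* DCs, then 2586 ± 98.7 and 2347 ± 42.9 with IFN-β (SD, n = 3). An exact two-sided permutation test of 3 libraries against 3 cannot give a p below 0.1, and a group's libraries are not stated to come from separate cultures, so the p-values measure only the spread between these samples, which may be technical.

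**Figure D4:**
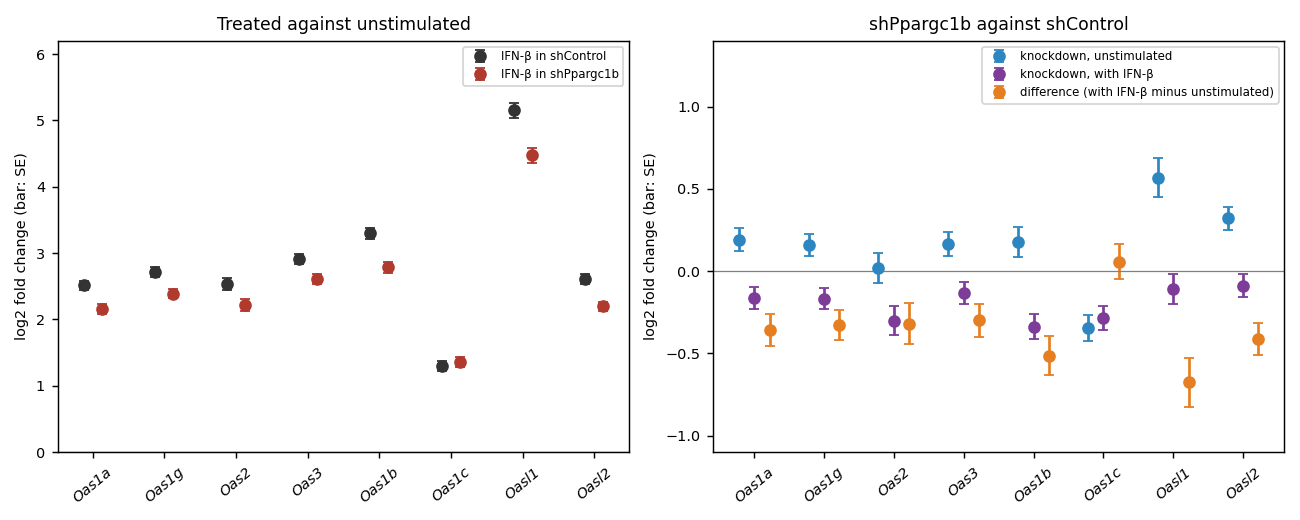
Log2 fold change of each OAS gene with its SE, for IFN-β against unstimulated cells (left) and for sh*Ppargc1b* against shControl (right) without IFN-β, with IFN-β, and as the difference between these. *Oasl1* has the largest response and *Oas1c* the smallest, and in the right panel the difference is negative for every gene but *Oas1c*.

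The 3 genes described from the 2-5A list did not rise with the synthetases. *Abce1*, which encodes a factor that recycles ribosomes, fell with IFN-β from 112, 118 and 123 to 60.1, 58.9 and 58.4 CPM in shControl DCs (log2 -0.99 ± 0.06, adjusted p = 2.96e-09). In sh*Ppargc1b* DCs it was at 125, 153 and 145 CPM without and at 84.0, 77.3 and 81.7 CPM with IFN-β, so it was higher than in shControl in both states (log2 0.26 ± 0.06, adjusted p = 0.00536, and 0.45 ± 0.06, adjusted p = 8.60e-05). Of the 2 genes whose products degrade 2-5A, *Akap7* had the larger differences. It was at 41.4, 44.5 and 36.4 CPM in unstimulated shControl and at 20.9, 20.4 and 17.1 CPM in unstimulated sh*Ppargc1b* DCs (log2 -1.07 ± 0.08, adjusted p = 2.11e-07), and at 24.0, 23.3 and 24.5 against 11.7, 12.1 and 11.8 CPM with IFN-β (-1.01 ± 0.08, adjusted p = 8.58e-07). *Akap7* is also an anchoring protein of protein kinase A, and the counts do not separate its isoforms. *Pde12*, a mitochondrial phosphodiesterase, fell with IFN-β (log2 -0.31 ± 0.06 in shControl, adjusted p = 0.000845) and did not differ detectably between the hairpins (0.06 ± 0.06 and 0.10 ± 0.07, adjusted p = 0.564 and 0.287). Part of its exons, 6.82%, overlaps *Arf4* on the other strand. All 3 genes fell with IFN-β in both kinds of DC, as did 4481 of 18228 tested genes in shControl and 3865 in sh*Ppargc1b* DCs. With the knockdown 1 was higher, 1 was lower and 1 did not pass the threshold in each state. Of all tested genes 12.4% were higher and 11.1% lower at rest, and 11.5% and 12.7% with IFN-β.

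**Figure D5:**
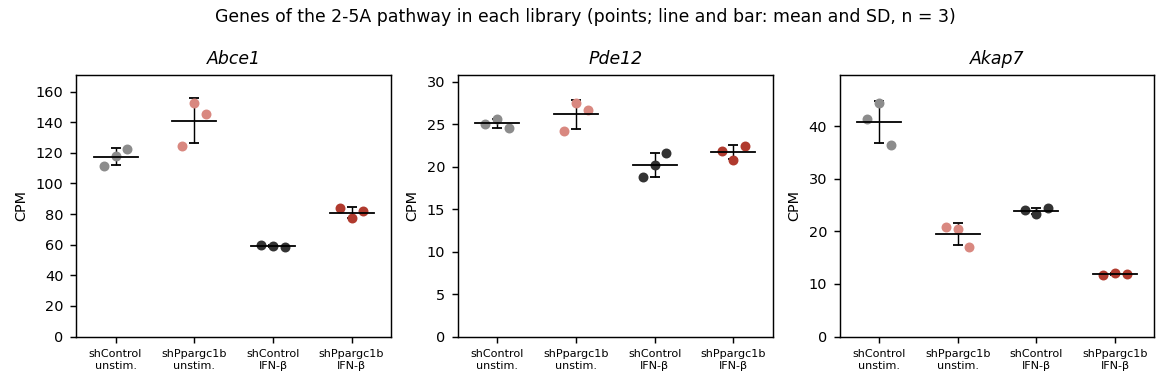
CPM of *Abce1*, *Pde12* and *Akap7* (axes from 0) in every library; points are libraries, lines the group means and error bars SD (n = 3). For *Akap7* the sh*Ppargc1b* points lie below the shControl points in both states, and for *Abce1* they lie above.

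Upstream of the family, the 6 genes described from the receptor and signalling list rose with IFN-β in both kinds of DC. Of all tested genes 23.7% rose in shControl and 21.4% in sh*Ppargc1b* DCs. In shControl DCs the 6 rises ranged from *Jak1* (log2 0.40 ± 0.03) to *Stat2* (2.66 ± 0.05). With the knockdown and no IFN-β, *Stat2* (0.21 ± 0.05, adjusted p = 0.00479) was higher and the other 5 did not pass the threshold, and with IFN-β only the kinase gene *Tyk2* was called, lower by -0.16 ± 0.04 (adjusted p = 0.0108). *Irf7*, the factor whose translation Oasl1 restrains, was at 34.7, 48.7 and 38.7 CPM in unstimulated shControl and at 63.1, 67.1 and 54.4 CPM in unstimulated sh*Ppargc1b* DCs (log2 0.59 ± 0.10, adjusted p = 0.000397). With IFN-β it stood at 619.8, 675 and 685 against 595, 638 and 588 CPM (-0.12 ± 0.09, adjusted p = 0.399). *Irf1* was lower with the knockdown under IFN-β (-0.34 ± 0.04, adjusted p = 2.62e-05). Of 10 interferon genes only *Ifnb1* had enough counts for a test, with 0 to 6 counts in unstimulated and 15 to 24 in treated libraries, and the difference between hairpins at rest was not detectable (adjusted p = 0.229).

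Of the 4 feedback genes *Usp18* (0.58 ± 0.10), *Socs3* (0.52 ± 0.10) and *Isg15* (0.48 ± 0.10) were higher with the knockdown at rest, where 12.4% of all tested genes were. With IFN-β only *Socs3* was called (0.34 ± 0.10, adjusted p = 0.0165), where 11.5% of all tested genes were called higher. That call of *Socs3* was lost without shPpargc1b IFN-beta replicate 2 (0.21, adjusted p = 0.0926) and without shControl IFN-beta replicate 3 (0.28, adjusted p = 0.0900). Usp18 and the Socs proteins damp interferon and cytokine signalling, and Isg15 is a ubiquitin-like modifier. The other sensors and effectors of double-stranded RNA were compared as a fixed list, which includes the adaptor gene *Mavs*. All 8 of them were lower with the knockdown under IFN-β, against 12.7% of all genes, and 2 were lower at rest, against 11.1%. The count under IFN-β was 8 in 7 of 18 alternative analyses and 6 or 7 in the others, with all 8 estimates negative in each. *Ddx58* (adjusted p = 0.0437) lost its call in 10 of the 18, with an adjusted p of up to 0.115 without shControl IFN-beta replicate 2, *Zbp1* in 2 (up to 0.0554 without shControl IFN-beta replicate 3) and *Mavs* in 1 (0.116 without the filter on low counts). The differences under IFN-β were small, from -0.18 (*Adar*, *Dhx58* and *Mavs*) to -0.21 (*Ifih1*), except for *Tlr3* at -0.49 ± 0.07 (adjusted p = 9.50e-05). *Tlr3*, the endosomal receptor, was also lower at rest, by -0.49 ± 0.08, as was *Mavs*, the adaptor of *Ifih1* and *Ddx58*, by -0.28 ± 0.05.

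Across the 12 libraries the genes whose log2 CPM followed the mean standardized profile of the 8 members most closely were *Mx2*, *Parp12*, *Ifi204*, *Ddx58* and *Cmpk2*, with Pearson's r between 0.9994 and 0.9997. These points share the libraries and the contrast between treated and untreated cells, which dominates the profile, so r is a description only. By Spearman's rank correlation 1 of the 5, *Mx2*, stayed among the first 5. In shControl DCs these genes rose with IFN-β by 2.68 (*Ddx58*) to 5.66 (*Cmpk2*) on the log2 scale.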

How the data were processed

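RNA-seq was measured in 12 libraries of transduced mouse DCs. Libraries were made after removal of ribosomal RNA. The authors trimmed read pairs with Trim Galore (0.6.0 in the submitters' processing notes), mapped them to mm10 (GRCm38) with STAR and deposited raw counts per GENCODE gene from STAR's own gene counting, unnormalized and without pooling. The notes name STAR 2.7.8a and the methods another version. Reads mapping to more than 1 place were not counted, which lowers near-identical genes such as *Oas1a* and *Oas1g*.

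The tests used edgeR 4.0.16 (R 4.3.3) as follows: filterByExpr (minimum count 10, minimum total 15), TMM scaling, a quasi-likelihood model with 1 mean for each of 4 groups over all 12 libraries, F-tests for 5 contrasts and Benjamini-Hochberg adjustment over 18228 genes, with a threshold of 0.05. The tested genes held 99.96% of the counts. The SE was the absolute log2 fold change divided by the square root of F. The percentages beside member counts are the share of all tested genes called alike. The fit was tested on simulated counts. Exon lengths and positions came from GENCODE M21 and promoter windows from RefSeq, read with Python 3.11.15, pandas 2.3.3 and Biopython 1.88. *Oas1b* and *Oas2* had no window in that table.

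Genes named are the 8 members, fixed lists (other Oas1 genes, 2-5A pathway, receptor and signalling, feedback, other sensors of double-stranded RNA, Irf7 and Irf1, interferons, cell type markers), *Ppargc1b* and the 5 genes most like the members with a mean log2 CPM of at least 3. *Apol9a* and *Apol9b* were named after the 16-base run had been seen. Some genes of these lists are not reported here, and the counts leave them out. The members and lists were chosen with earlier results of these data known. Alternatives were RLE factors, library totals alone, DESeq2 1.42.0, no filter, a block by run of library codes, only the 6 libraries compared, and leaving out each library. Replicates are numbered in accession order.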

Additional observations from a re-analysis of the deposited data

Results flagged for a closer look

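None of the 8 OAS genes had a knockdown effect that differed between unstimulated and treated DCs at the threshold. In the fixed lists 3 genes did, and 0.73% of all tested genes (edgeR quasi-likelihood test of the interaction, adjusted over all tested genes). *Irf7*, which encodes a factor that amplifies the interferon response, had an interaction of -0.72 ± 0.14 SE on the log2 scale (adjusted p = 0.0244), with a knockdown difference of 0.59 at rest and -0.12 under IFN-β. *Isg15*, the ubiquitin-like modifier, had -0.62 ± 0.13 (adjusted p = 0.0489), with 0.48 at rest and -0.14 under IFN-β. *Adar*, which edits double-stranded RNA, had -0.28 ± 0.06 (adjusted p = 0.0498), with 0.11 at rest and -0.18 under IFN-β. All 3 were close to the threshold: the adjusted p rose to as much as 0.119 for *Irf7*, 0.149 for *Isg15* and 0.167 for *Adar* when single libraries were left out. Of 17 alternative analyses *Irf7* lost its call in 7, and *Isg15* and *Adar* lost theirs in 10 each. *Oasl1* had an interaction of similar size, -0.68 ± 0.15, with an adjusted p of 0.0532.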

How the results depend on the processing

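All 8 members kept their rise with IFN-β in both kinds of DC under every alternative run. The other counts depended on the analysis. For the knockdown without IFN-β, 3 members were called as reported, 6 without the filter on low counts, and 3 to 7 when single libraries were left out, where 7 belonged to the fit without shControl unstimulated replicate 2. For the knockdown with IFN-β, 3 were called as reported, 5 with only the 6 libraries compared, and 2 to 4 when single libraries were left out. For the interaction, 0 were called as reported, 1 with RLE factors, 5 with DESeq2, 7 without the filter, and 0 to 5 when single libraries were left out. With the replicate block by run of library codes, 4 members were called in the interaction (*Oas1b*, *Oas1g*, *Oasl1* and *Oasl2*, adjusted p from 0.0124 to 0.0482) and 4 in each knockdown comparison. The labels do not say what the runs mark. Deviations from the group means correlated between 0.0276 and 0.146 (median 0.0867) for libraries of different groups in the same run and between -0.154 and 0.0565 (median -0.0436) for those in different runs, and 12 of 12 libraries correlated best with their own run. This is a hint from the data that the runs share something, but not every correlation reached 0.1, the level set for treating the runs as pairs. Without the filter, edgeR's quasi-dispersions were pulled fully to their trend, which put those of the members between 0.503 and 0.759 instead of 0.429 and 2.32. The share of all tested genes called in the interaction was 0.73% as reported, 0.461% with library totals alone, 2.46% with DESeq2, 1.20% without the filter, 2.33% with the block and 0.193% to 1.45% when single libraries were left out. Without the filter, with 43864 genes tested, the shares in the other comparisons were 19.2% and 16.8% for IFN-β and 9.59% and 9.71% for the knockdown. Of 712 values of members under alternatives 43 newly passed the threshold, 2 lost it and 3 changed sign, all 3 for *Oas2* in the knockdown without IFN-β, which ran from -0.071 to 0.18 when single libraries were left out.

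Of 2222 values of listed genes under alternatives 50 newly passed the threshold, 51 lost it and 26 changed sign. With library totals alone *Eif2ak2* stood at -0.0022 (knockdown at rest) and *Tlr3* at 0.033 (interaction), with the block *Tlr3* at 0.00064, and without the filter *Jak1* at -0.0030 (interaction). When single libraries were left out, the ranges were -0.15 to 0.066 for *Ppargc1b* (IFN-β in sh*Ppargc1b*), -0.012 to 0.055 for *Eif2ak2* and -0.012 to 0.092 for *Zbp1* (knockdown at rest), -0.061 to 0.053 for *Ifnar2* and -0.034 to 0.044 for *Usp18* (knockdown with IFN-β), and, for the interaction, -0.018 to 0.10 for *Pde12*, -0.0099 to 0.15 for *Akap7*, -0.022 to 0.039 for *Jak1*, -0.081 to 0.093 for *Tlr3* and -3.75 to 0.058 for *Ifnb1*. Where not stated, the cause was not tested.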
